A study of Mus musculus with 9 samples.

Results

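The response of the TGF-β pathway to photodynamic treatment (PDT) of B.END3 cells was followed through 10 of the 54532 genes of the expression table. They were chosen by name, with earlier results of these data known. The ligands Tgfb1, Tgfb2 and Tgfb3, the receptors Tgfbr1 and Tgfbr2, the signal transducer Smad3, the inhibitors Smad6, Smad7 and Skil, and the secreted protein thrombospondin 1 (Thbs1) were taken. B.END3 is a line of mouse brain microvessel endothelial cells, labelled as strain C57BL/6. The organism is given as mouse, while the growth protocol calls the cells rat, and the species was not tested here: all values rest on reads set against the mouse genome. Cells labelled untreated (Ctrl) gave 3 libraries, and 3 came from cells at a light dose of 10 J/cm2 (Ep1) and 3 from cells at 20 J/cm2 (Ep2). Cells of both PDT groups were kept for 90 min in 300 μg/mL porfimer sodium, a porphyrin photosensitizer that forms reactive oxygen species under red light, and were lit at 635 nm and 100 mW/cm2. The sources used here do not state the time from light to lysis, whether the Ctrl cells had received photosensitizer or light alone, or whether the libraries of a group came from separate cultures, so p-values measure the spread between these libraries, which may be technical.

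TGF-β ligands are secreted in a latent form, and thrombospondin 1 is one of the proteins that can release the active ligand. The active ligand brings together the type II receptor Tgfbr2 and the type I receptor Tgfbr1, which phosphorylates Smad2 and Smad3, and these enter the nucleus with Smad4 and bind DNA. Smad6 and Smad7 inhibit at the receptor and Skil (SnoN) on chromatin, and all 3 are themselves switched on by signals of the family. In brain vessels the pathway is known for its roles in vessel maturation and barrier function.

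Expression was given in FPKM, fragments scaled by gene length and by the fragments of the library, a scale on which levels of different genes can be compared. The 9 libraries held 16240688 to 19509225 fragments on genes. Replicate libraries were further apart than counting alone would put them. The chi-square divided by its degrees of freedom was 10.06 and 15.25 for the first Ep2 library against the other two, and 2.81 to 5.66 for the remaining pairs within a group. Of 16 endothelial marker genes, 13 stayed under an FPKM of 1 in every library, Pecam1 at 0.0821 to 0.242, and Emcn, Erg and Robo4 were listed at 0 in all 9. Flt1 lay at 6.66 to 11.7 and the summed level of the list at 10.53 to 11.1 in Ctrl, 11.1 to 12.3 in Ep1 and 14.0 to 15.1 in Ep2. Among 22 markers of other cell types, the epithelial keratins Krt8 (562 to 714) and Krt18 (230 to 332) were high, while Cdh1 reached at most 0.103 and Ptprc 0.00591, and the summed list lay at 867 to 911, 806 to 869 and 910 to 1058. The listed values of these defining markers thus go against the endothelial label, and the cells are called by the name of the line only. A value of 0 in this table need not mean no transcript, since Itgb1, an integrin subunit that nearly all adherent cells use, was also listed at 0 to 0.0396, or at most 3 fragments. The share of fragments on mitochondrial genes was 1.90 to 1.99% in Ctrl, 1.997 to 2.08% in Ep1 and 2.04 to 2.49% in Ep2. The part of the marker levels, of the mitochondrial share and of the first Ep2 library in the results that follow was not tested beyond the fits without that library. In bulk RNA, fewer cells with a transcript and less transcript per cell cannot be told apart.

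Thbs1 had the largest change of the 10 genes, and Tgfbr1, Tgfbr2 and Skil rose and Smad6 fell at 20 J/cm2. The main ligand Tgfb1 did not reach the threshold of the test against Ctrl at either dose. Of the 10 genes, 9 reached an FPKM of 1 in at least 3 libraries and were tested with the 11727 genes that did, on log2(FPKM + 1) with limma. A gene that passed had a Benjamini-Hochberg adjusted p-value below 0.05 within its comparison, and a DEG passed with an absolute log2 fold change above 0.6. Between Ep1 and Ctrl, 4 of the 9 genes passed, against 11.3% of all tested genes, with 3 higher (6.32% of all) and 1 lower (4.97%). This count was 0 without the second Ctrl library, 1 without the first Ctrl or the third Ep1 library and 1 with no filter on low values, and the count over all genes went from 1324 to 193, 392, 191 and 396. Between Ep2 and Ctrl, 8 of the 9 passed, against 53.2%, with 5 higher (23.9%) and 3 lower (29.3%). Between Ep2 and Ep1, 5 of the 9 passed, against 44.0%, with 3 higher (18.8%) and 2 lower (25.2%). Over all tested genes, the libraries of the groups did not overlap for 41.3% in Ep1 against Ctrl, 59.7% in Ep2 against Ctrl and 54.4% in Ep2 against Ep1, and for 4, 8 and 7 of the 9. At 20 J/cm2 a change that passed was thus the common case, and the count of 8 stands against that share. Since the genes were chosen with earlier results of these data known, these counts describe the set and do not test it. Thbs1 alone was a DEG, at both doses, among 0.793% of genes in Ep1 and 9.17% in Ep2, and none of the 9 was a DEG between the doses, against 5.90%. Tgfbr1, at 0.56 in Ep2, was a DEG there with median centring (0.61), a pseudocount of 0.1 (0.63), voom (0.63) and without the first Ep2 library (0.68). With median centring of the libraries, the higher share of the genes that passed between the doses went from 42.8 to 55.5%. For Ep2 against Ctrl it went from 44.9 to 52.7%, and for the DEGs there from 36.0 to 47.3%. Both PDT groups were set against the same 3 Ctrl libraries, so their changes are not independent of each other.

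**Figure D1:**
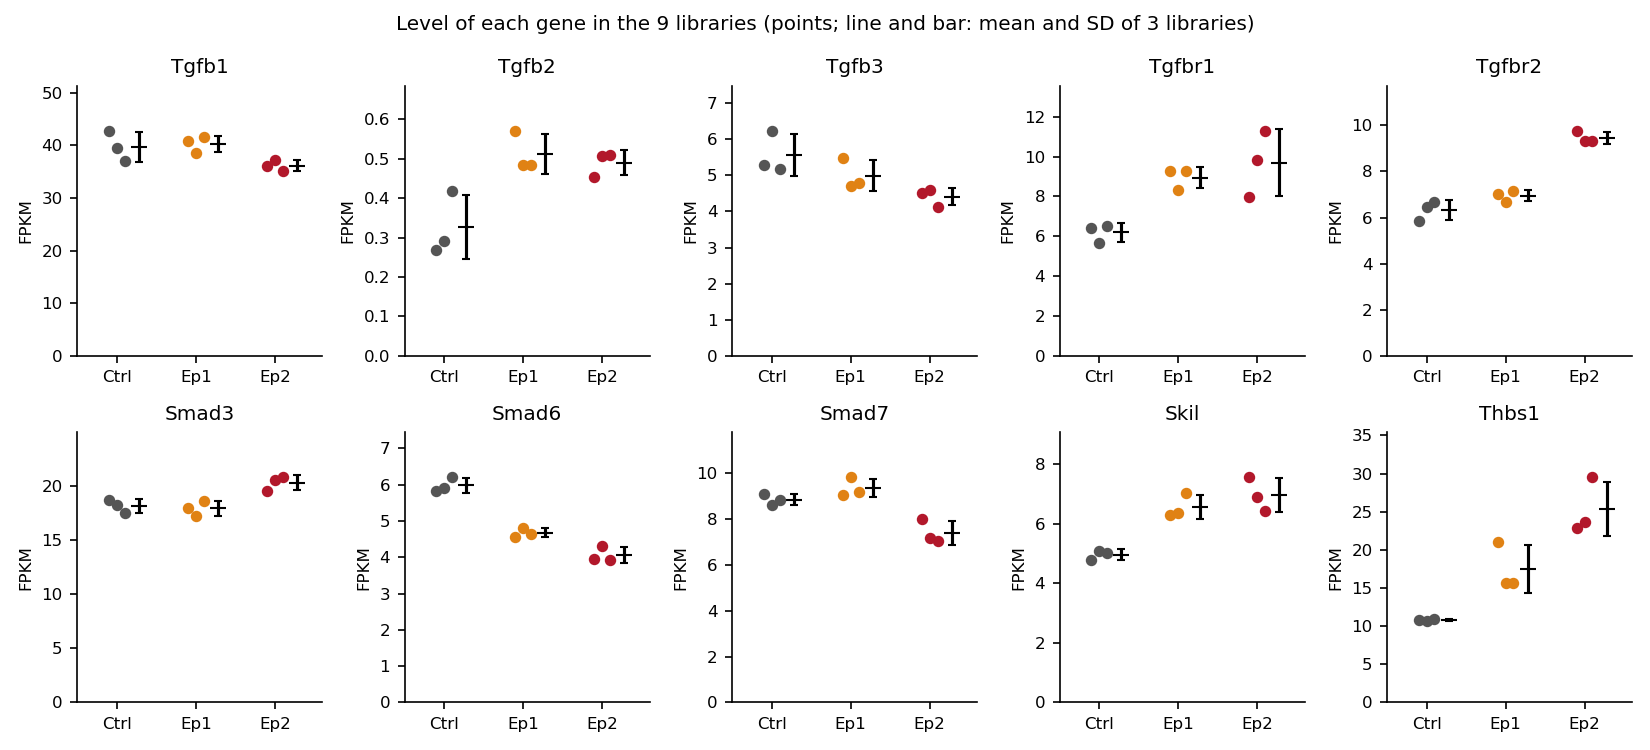
FPKM of each of the 10 genes in the 9 libraries, by group; points are libraries and the line with bar is the mean and SD of 3 libraries, each vertical axis starting at 0. Thbs1 went from 10.8 in Ctrl to 25.4 in Ep2, Smad6 fell from 5.98 to 4.06, and Tgfb1 stayed between 35.2 and 42.8.

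In Ctrl cells Tgfb1 stood first of the 10 genes in FPKM at 39.8 ± 2.87 (SD, n = 3), followed by Smad3 at 18.2 ± 0.618, Thbs1 at 10.8 ± 0.0695 and Smad7 at 8.84 ± 0.234, all with ranges apart from one another. Tgfbr2, Tgfbr1, Smad6 and Tgfb3 followed at 6.33 to 5.56, and each of them overlapped its neighbour in that order. Skil came next at 4.96 ± 0.173 and Tgfb2 last at 0.326 ± 0.0808. In Ep2 Thbs1 had passed Smad3 with ranges apart, Tgfbr1 overlapped both Tgfbr2 and Smad7, and Tgfb3 and Smad6 overlapped each other below Skil.

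The ligands came first in the order of the pathway. Tgfb1 (ENSMUSG00000002603, chromosome 7, 25687002 to 25705077, plus strand; all positions on GRCm38), the most abundant ligand of the 3, had FPKM values of 42.8, 39.6 and 37.0 in Ctrl, 40.9, 38.6 and 41.5 in Ep1 and 36.1, 37.3 and 35.2 in Ep2. Both PDT groups overlapped Ctrl, and the Ep2 libraries all lay below the Ep1 libraries. The log2 fold change was 0.02 in Ep1 (95% interval -0.09 to 0.13, adjusted p = 0.843, limma) and -0.13 in Ep2 (-0.24 to -0.02, adjusted p = 0.0757), and Ep2 minus Ep1 was -0.15 (adjusted p = 0.0525). Without the third Ctrl library, the lowest of Ctrl, the adjusted p in Ep2 was 0.0237. The difference between the doses passed with a filter at an FPKM of 5, with only the groups compared and with voom (adjusted p = 0.0417, 0.0407 and 0.0282).

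Tgfb3 (ENSMUSG00000021253, chromosome 12, 86056745 to 86079041, minus strand), a ligand that shares the receptors of Tgfb1, was measured at 5.29, 6.23 and 5.17 in Ctrl, 5.48, 4.71 and 4.79 in Ep1 and 4.51, 4.58 and 4.13 in Ep2. The Ep2 libraries lay below every Ctrl library, and the Ep1 libraries overlapped Ctrl. On the log2 scale, Tgfb3 fell by 0.28 at the higher dose (SE 0.078, adjusted p = 0.0137, limma), and the change in Ep1 was -0.13 (95% interval -0.28 to 0.02, adjusted p = 0.295). Without the second Ctrl library, the highest of Ctrl, the Ep2 change was -0.21 with an adjusted p of 0.0521. Ttll5 is annotated on the opposite strand over Tgfb3, at an FPKM of 1.41 to 2.20, and whether the counting used strand is not given in the sources used here.

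Tgfb2 (ENSMUSG00000039239, chromosome 1, 186622792 to 186705989, minus strand), the remaining ligand, was under the filter on low values. Its FPKM was 0.269, 0.291 and 0.418 in Ctrl, 0.570, 0.484 and 0.484 in Ep1 and 0.453, 0.508 and 0.510 in Ep2. These values stood for 30 to 45 fragments in Ctrl, 47 to 61 in Ep1 and 49 to 55 in Ep2. All 6 PDT libraries lay above all 3 Ctrl libraries, with ratios of the means of 1.57 and 1.503. Tgfb2 was tested in 2 of the alternatives, which differ in scale, filter and genes tested. With no filter the log2(FPKM + 1) change was 0.19 in Ep1 (adjusted p = 0.239, limma) and 0.17 in Ep2 (adjusted p = 0.140), and with voom on the recovered fragments it was 0.68 (SE 0.229, adjusted p = 0.0551) and 0.61 (SE 0.230, adjusted p = 0.0336).

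Both receptors rose at 20 J/cm2, and Tgfbr1 passed at 10 J/cm2 as well. Tgfbr1 (ENSMUSG00000007613, chromosome 4, 47353222 to 47414931, plus strand), the type I receptor kinase, had FPKM values of 6.41, 5.64 and 6.54 in Ctrl, 9.25, 8.34 and 9.25 in Ep1 and 7.97, 9.84 and 11.3 in Ep2. Every PDT library lay above every Ctrl library, and the Ep2 libraries were spread on both sides of Ep1. Tgfbr1 rose by 0.47 (SE 0.106, adjusted p = 0.0266, limma) in Ep1 and by 0.56 (adjusted p = 0.00167) in Ep2, and Ep2 minus Ep1 was 0.09 (95% interval -0.11 to 0.30, adjusted p = 0.501). The Ep1 call was lost without the first or the second Ctrl library and without the first or the third Ep1 library (adjusted p = 0.0719, 0.108, 0.0878 and 0.0927), and with no filter on low values (0.0861).

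Tgfbr2 (ENSMUSG00000032440, chromosome 9, 116084293 to 116175360, minus strand), the ligand-binding type II receptor, was at 5.85, 6.48 and 6.68 in Ctrl, 7.03, 6.67 and 7.14 in Ep1 and 9.75, 9.30 and 9.31 in Ep2. Ctrl and Ep1 overlapped by a narrow margin, and all Ep2 libraries stood above both. The change was 0.12 in Ep1 (SE 0.055, adjusted p = 0.194, limma) and did not pass. Tgfbr2 rose by 0.51 (SE 0.055, adjusted p = 6.71e-05, limma) in Ep2 and by 0.40 from Ep1 to Ep2 (adjusted p = 0.000446). In the fits that left out 1 library, the Ep2 changes of Tgfbr1 and Tgfbr2 and the rise of Tgfbr2 between the doses all passed.

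Smad3 and Smad6 lie on the same chromosome, with 195081 bases and 3 listed genes between them. At 20 J/cm2 Smad6 fell, while the rise of Smad3 was small and did not pass in every fit. Smad3 (ENSMUSG00000032402, chromosome 9, 63646767 to 63757994, minus strand), which carries the receptor signal to DNA, was at 18.7, 18.3 and 17.5 in Ctrl, 18.01, 17.2 and 18.7 in Ep1 and 19.6, 20.6 and 20.8 in Ep2. Only Ep2 was apart from Ctrl. Smad3 rose by 0.15 in Ep2 (SE 0.047, adjusted p = 0.0203, limma) and by 0.17 from Ep1 to Ep2 (adjusted p = 0.0155), and the Ep1 change was -0.02 (95% interval -0.11 to 0.07, adjusted p = 0.845). The Ep2 call was lost without the second or the third Ctrl library and without the second or the third Ep2 library (adjusted p = 0.0502, 0.0681, 0.0598 and 0.0578), and that between the doses without the second Ep1 library (0.0642).

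Smad6 (ENSMUSG00000036867, chromosome 9, 63953076 to 64022059, minus strand), an inhibitory SMAD that acts mainly on BMP receptors, was at 5.83, 5.92 and 6.20 in Ctrl, 4.56, 4.82 and 4.66 in Ep1 and 3.94, 4.32 and 3.93 in Ep2. The 3 groups did not overlap and followed the light dose. Smad6 fell by 0.30 in Ep1 (SE 0.052, adjusted p = 0.0121, limma), by 0.46 in Ep2 (adjusted p = 8.81e-05) and by 0.17 from Ep1 to Ep2 (adjusted p = 0.0281). The step between the doses passed in only 5 of 14 other settings, and with median centring it was -0.11 (adjusted p = 0.109). The Ep1 call was lost without the second Ctrl or the third Ep1 library (adjusted p = 0.0544 and 0.0540).

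Smad7 (ENSMUSG00000025880, chromosome 18, 75367529 to 75395935, plus strand), the inhibitory SMAD that brings ubiquitin ligases to the TGF-β receptors, was at 9.07, 8.61 and 8.83 in Ctrl, 9.06, 9.81 and 9.20 in Ep1 and 7.98, 7.19 and 7.02 in Ep2. All Ep2 libraries lay below both other groups, which overlapped. Smad7 fell by 0.23 in Ep2 (SE 0.056, adjusted p = 0.00695, limma) and by 0.30 from Ep1 to Ep2 (adjusted p = 0.00208), and the change in Ep1 was 0.07 (95% interval -0.04 to 0.18, adjusted p = 0.416). The mean of Smad7 was thus below Ctrl at the higher dose only.

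Skil (ENSMUSG00000027660, chromosome 3, 31095058 to 31122577, plus strand), a corepressor that binds SMAD complexes, was at 4.77, 5.09 and 5.03 in Ctrl, 6.30, 6.35 and 7.03 in Ep1 and 7.55, 6.89 and 6.42 in Ep2. Both PDT groups stood above Ctrl and overlapped each other. Skil rose by 0.34 in Ep1 (SE 0.065, adjusted p = 0.0158, limma) and by 0.41 in Ep2 (adjusted p = 0.00061), and Ep2 minus Ep1 was 0.07 (95% interval -0.06 to 0.20, adjusted p = 0.400). The Ep1 call was lost without the first or second Ctrl or the third Ep1 library (adjusted p = 0.0612, 0.0591 and 0.0668), and with no filter (0.0511).

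**Figure D2:**
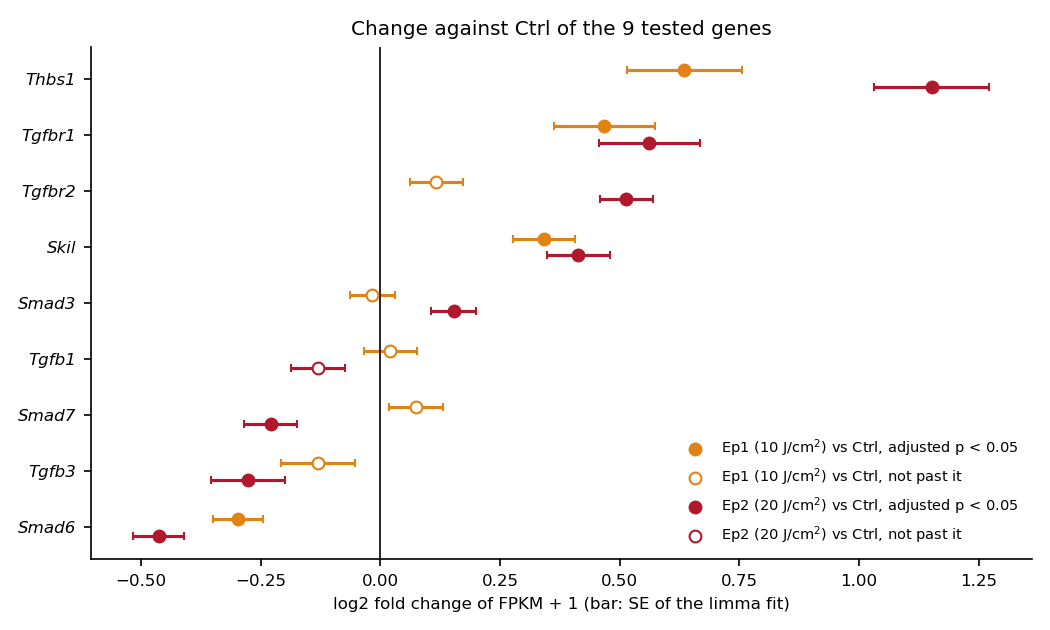
Log2 fold change of FPKM + 1 against Ctrl of the 9 tested genes, with the SE of the limma fit as bar; filled points passed an adjusted p of 0.05. Thbs1 had the largest change at both doses (0.63 and 1.15), Tgfbr2, Smad3, Smad7 and Tgfb3 passed in Ep2 and not in Ep1, and Tgfb1 passed in neither.

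Promoter sequences from RefSeq (GRCm38.p6, 250 bases before to 50 after each start) were matched for 6 of the 10 genes, in 7 windows. Tgfb3, Smad7, Skil and Thbs1 had no entry. The sequences of the 4 matched genes that passed in Ep2 are shown from 100 bases before the start. They let the gene that fell, Smad6, be set beside those that rose, but matches further upstream are not printed. Capitals mark a SMAD palindrome (GTCTAGAC, its own reverse complement) or a GC box (GGGCGG, or CCGCCC for the other strand).
Smad6, chr9:64022056-64022159, minus strand: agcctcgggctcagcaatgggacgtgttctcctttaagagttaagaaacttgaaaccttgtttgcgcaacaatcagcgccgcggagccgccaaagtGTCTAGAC
Smad3, chr9:63757995-63758094, minus strand: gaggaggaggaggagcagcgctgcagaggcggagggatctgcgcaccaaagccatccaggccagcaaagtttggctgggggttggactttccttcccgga
Tgfbr1, chr4:47353122-47353221, plus strand: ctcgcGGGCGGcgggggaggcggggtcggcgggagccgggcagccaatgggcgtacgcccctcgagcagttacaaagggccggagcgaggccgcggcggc
Tgfbr2, chr9:116175364-116175463, minus strand: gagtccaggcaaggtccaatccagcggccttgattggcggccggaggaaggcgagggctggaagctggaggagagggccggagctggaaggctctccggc

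The SMAD palindrome lay across the start of Smad6, from position -4 to 4, and was found in 1 of the 7 windows and in 0.213% of all 32851 windows. The GC box was found in 4 of the 7 windows, those of Tgfb1, Tgfbr1, Smad3 and Smad6, and in 35.7% of all. Those of Smad6 (-171 to -120) and Smad3 (-234 to -166) lay upstream of the printed bases, as did a further one of Tgfbr1 (-133 to -128). Neither an AP-1 site (TGANTCA, its own reverse complement, 7.81% of all windows) nor a CRE (TGACGTCA, its own reverse complement, 1.79%) was found in the 7 windows. A TATA box (TATAAA, or TTTATA for the other strand, 13.6% of all windows) lay at -31 to -26 of Tgfb2. These matches describe the letters of the windows only.

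Thbs1 (ENSMUSG00000040152, chromosome 2, 118111876 to 118127133, plus strand), a matricellular protein that activates latent TGF-β and restrains angiogenesis, had FPKM values of 10.8, 10.7 and 10.9 in Ctrl, 21.1, 15.7 and 15.7 in Ep1 and 22.9, 23.7 and 29.5 in Ep2. The Ctrl libraries were close together, the 3 groups did not overlap, and the first Ep1 library stood above the other two. Thbs1 rose by 0.63 in Ep1 (SE 0.1205, adjusted p = 0.0161, limma), by 1.15 in Ep2 (adjusted p = 7.21e-05) and by 0.52 from Ep1 to Ep2 (adjusted p = 0.00768), with ratios of the means to Ctrl of 1.62 and 2.35. Without the first or second Ctrl library the adjusted p in Ep1 was 0.0588 and 0.0701, with no filter it was 0.0547, and without the first Ep1 library the change there was 0.50, under the DEG threshold. The rise in Ep2 passed in all 14 other settings, at 1.04 to 1.22.

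Ratios of FPKM within a library, chosen after the values were seen and given without a test, compared the genes free of the scaling between libraries. Tgfbr2 to Smad7, a receptor to its inhibitor, was 0.644 to 0.756 in Ctrl, 0.680 to 0.776 in Ep1 and 1.22 to 1.33 in Ep2. Tgfbr1 to Smad6 was 0.953 to 1.10 in Ctrl, 1.73 to 2.03 in Ep1 and 2.02 to 2.87 in Ep2. Thbs1 to Smad3 was 0.576 to 0.621, 0.842 to 1.17 and 1.15 to 1.42. Tgfbr2 to Tgfbr1 was 0.912 to 1.15, 0.759 to 0.800 and 0.825 to 1.22, and Smad7 to Smad6 was 1.42 to 1.56, 1.98 to 2.04 and 1.66 to 2.02, so that neither followed the dose. Of these 5 ratios, Tgfbr2 to Smad7 crossed 1 only in Ep2, whereas Tgfbr1 to Smad6 had already left the Ctrl range in Ep1.

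**Figure D3:**
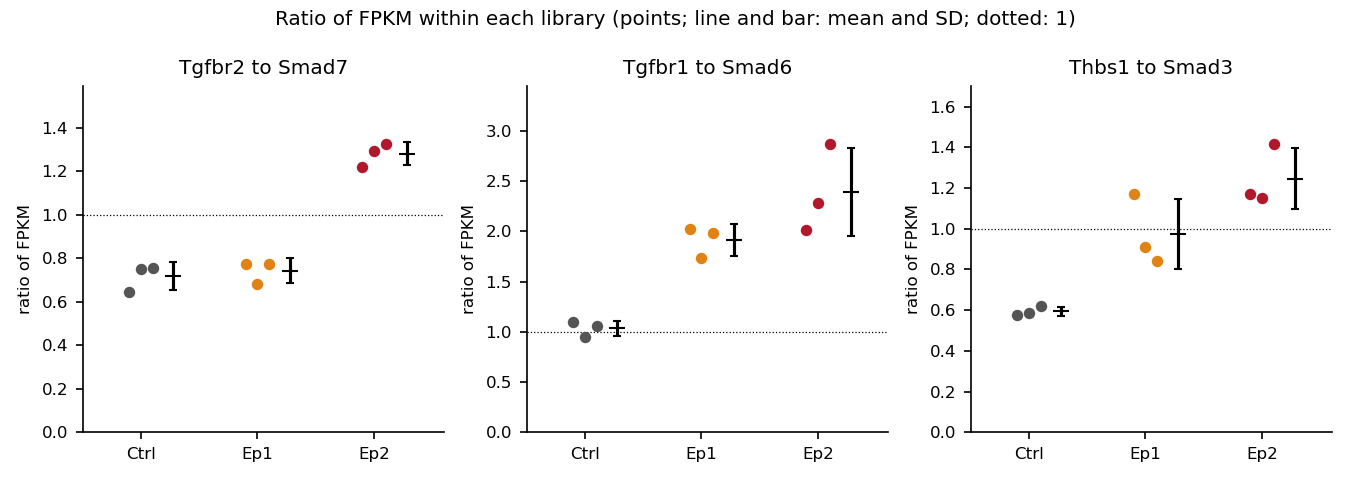
Ratio of FPKM within each library for Tgfbr2 to Smad7, Tgfbr1 to Smad6 and Thbs1 to Smad3; points are libraries, the line with bar is mean and SD, and the dotted line marks a ratio of 1. Tgfbr2 to Smad7 separated in Ep2 (1.22 to 1.33 against at most 0.776), and Tgfbr1 to Smad6 in both PDT groups (at least 1.73 against at most 1.10).

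The rest of the pathway was described with gene lists, also chosen with earlier results of these data known. Their counts stand against the shares of all tested genes. Of these, 6.32% rose and 4.97% fell in Ep1, and 23.9% rose and 29.3% fell in Ep2. Which Ep2 share is larger depends on scaling: with median centring, the higher share of the passing genes there went from 44.9 to 52.7%. Of 20 genes listed as ligands of the family, 7 were tested, of which 2 rose and 3 fell in Ep2, with a median log2 fold change of -0.18 against -0.03 over all tested genes. Bmp2, which signals through BMP receptors, went from 3.82 in Ctrl to 4.93 in Ep1 and 6.16 in Ep2 (change in Ep2 0.56, adjusted p = 0.00139, limma), and Bmp1, which is no ligand but a protease that processes collagens and the BMP antagonist chordin, and 1 of the 3 that fell, from 24.0 to 20.5 and 17.4 (-0.45, adjusted p = 9.62e-05). Among the 10 receptors tested, 4 rose and 1 fell in Ep1 and 7 rose and 1 fell in Ep2, or 3, 1, 5 and 1 of the 8 without Tgfbr1 and Tgfbr2. The medians were 0.15 and 0.34, against -0.01 and -0.03 over all tested genes. Acvr2a, a type II receptor for activins and BMPs, was at 4.004, 3.95 and 3.89 in Ctrl, 5.62, 5.59 and 5.30 in Ep1 and 6.33, 7.28 and 8.12 in Ep2. Its groups did not overlap, and it rose by 0.39 (adjusted p = 0.0152, limma) and 0.73 (adjusted p = 5.06e-05).

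All 8 SMADs were tested, and 1 rose and 1 fell in Ep1 and 2 rose and 2 fell in Ep2. The other 4 did not pass in Ep2, near the share of all tested genes, of which 53.2% passed. Without Smad3, Smad6 and Smad7, 1 rose and none fell at either dose. Smad4, the partner shared by TGF-β and BMP signals, went from 29.6 to 33.4 and 35.7 and rose by 0.17 (adjusted p = 0.0473, limma) and 0.26 (adjusted p = 0.0011). Of 15 tested genes listed as corepressors, ubiquitin ligases or other inhibitors, 2 rose and none fell in Ep1. In Ep2, 7 rose, 2 fell and 6 did not pass, near the share of all tested genes, of which 53.2% passed. The medians were 0.12 in Ep1 and 0.14 in Ep2. Nedd4l, a ubiquitin ligase that limits activated Smad2 and Smad3, went from 4.96 to 5.71 and 8.93 and rose by 0.74 in Ep2 (adjusted p = 4.21e-05, limma). Pmepa1, an inhibitor and target of the pathway named after its values were seen, went from 2.99 to 3.90 and 2.002 and fell by 0.40 in Ep2 (adjusted p = 0.0136, limma). The genes of this list thus did not share 1 direction, and a listed gene need not inhibit the pathway.

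Of 12 genes of latent TGF-β storage and activation, none rose and 1 fell in Ep1, and 6 rose and 3 fell in Ep2, with a median of 0.10 in Ep2, so that 9 of 12 passed there against 53.2% of all genes. The integrin subunit Itgav, which activates latent TGF-β with several partners, went from 24.6 to 28.1 and 32.2 and rose by 0.37 in Ep2 (adjusted p = 0.000343, limma). Its partner Itgb5 went from 43.1 to 36.3 and 31.6 and fell by 0.24 and 0.44 (adjusted p = 0.0105 and 3.16e-05). Of 4 extracellular antagonists none passed in Ep1 and 3 rose in Ep2, among them Fstl1 (11.6, 12.4 and 16.1 in the 3 groups, 0.44, adjusted p = 0.000203) and the protease Htra1 (36.8, 36.0 and 50.7, 0.45, adjusted p = 4.75e-05).

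Of 22 SMAD-responsive target genes tested, 1 rose and 4 fell in Ep1, and 6 rose and 5 fell in Ep2, with medians of -0.04 and 0.02. In Ep2, 11 of 22 thus passed, near the 53.2% of all genes. Skil, Smad6 and Smad7 are among these 22, and Skil was the gene that rose in Ep1. The transcription factor Bhlhe40 went from 9.40 to 11.7 and 17.5 (0.80 in Ep2, adjusted p = 0.004, limma). Klf10, an early TGF-β target, went from 18.4 to 18.8 and 26.0 (0.48 in Ep2, adjusted p = 2.23e-05, limma). Id1 and Id3, known targets of BMP signals, fell in Ep1 by 0.53 and 0.35 (adjusted p = 0.00906 and 0.0142) and in Ep2 by 0.42 and 0.24 (adjusted p = 0.00205 and 0.0123). Pmepa1 and Smad7, also of this list, fell in Ep2 by 0.40 and 0.23 (adjusted p = 0.0136 and 0.00695), so targets of TGF-β did not share 1 direction. Klf10, Id1 and Id3 were named after their values were seen.

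Of the 9 tested thrombospondins, receptors and related proteases, 3 rose and 3 fell in Ep1 and 4 rose and 4 fell in Ep2. Thbs3, a thrombospondin of the other subgroup of the family, was at 23.2, 21.3 and 20.4 in Ctrl, 16.3, 19.7 and 17.99 in Ep1 and 9.95, 9.47 and 9.40 in Ep2. Its groups did not overlap, and it fell by 0.25 (adjusted p = 0.0487, limma) and by 1.09 (adjusted p = 5.91e-06), opposite to Thbs1. Adamts1, a protease with thrombospondin repeats, was at 8.4998, 8.74 and 9.30 in Ctrl, 37.8, 15.6 and 20.1 in Ep1 and 12.9, 13.2 and 21.2 in Ep2. It rose by 1.28 in Ep1 (SE 0.308, adjusted p = 0.0387, limma), with the first Ep1 library far above the rest, and the Ep2 change of 0.73 did not pass (adjusted p = 0.0784). Of the cell type markers, the VEGF receptor Flt1 rose by 0.59 in Ep2 (adjusted p = 9.67e-05, limma) and the epithelial adhesion protein Epcam by 0.61 (0.812 in Ctrl, 1.77 in Ep2, adjusted p = 0.00154), while Egfl7 was at 2.09, 2.21 and 1.65 and did not pass.

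**Figure D4:**
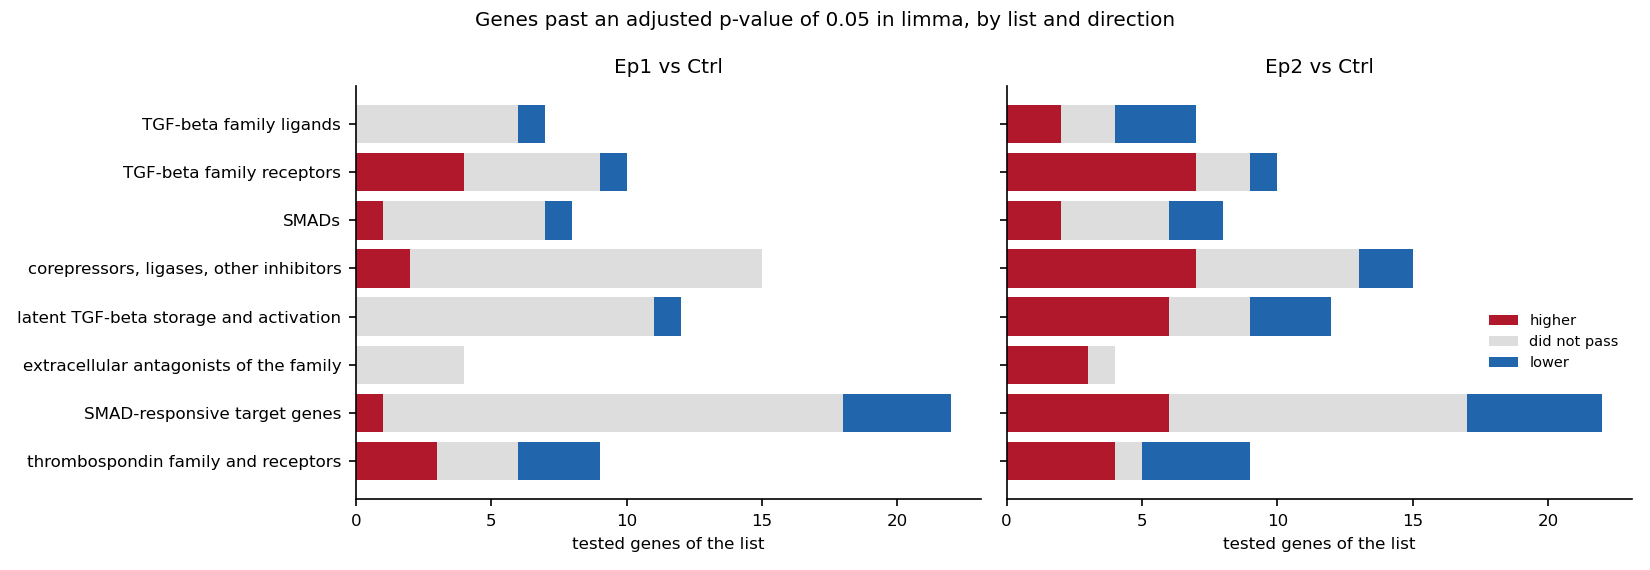
Number of tested genes of 8 lists that passed an adjusted p of 0.05 in limma as higher or lower, or did not pass, in Ep1 against Ctrl (left) and Ep2 against Ctrl (right). Receptors had 7 higher and 1 lower in Ep2, while SMAD-responsive targets had 6 higher and 5 lower.

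The genes whose pattern over the 9 libraries was most like that of Thbs1, by Pearson correlation of log2(FPKM + 1) among 7251 genes with a mean FPKM of at least 5, were Klf5 and Myo10 (both r = 0.996), Cmtm6 and Cobll1 (both 0.990) and Elf1 (0.988). Klf5, a zinc finger transcription factor, went from 5.59 ± 0.0707 in Ctrl to 8.81 ± 1.03 in Ep1 and 12.5 ± 1.46 in Ep2 (SD, n = 3), and Elf1, an ETS transcription factor, from 7.13 to 9.45 and 12.6. The genes most like Smad6 were Thap11 (0.979), Atoh8 (0.977), Gpr180 (0.977), Rilpl2 (0.976) and Anapc13 (0.975). Atoh8, a helix-loop-helix factor, fell from 11.8 ± 0.904 to 6.86 ± 0.446 and 5.04 ± 0.748, the steepest course of these 5. These correlations describe 9 points in 3 groups that share the same libraries.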

How the data were processed

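The labels assign 9 RNA-seq libraries of B.END3 cells to Ctrl, Ep1 and Ep2. The authors deposited FPKM for each gene with gene lengths, and the 9 single-library tables equal the joint table. The submitters' processing notes name Bowtie 0.12.2 and mm8, and the methods name GRCm39. Of 36522 genes compared, 99.88% of listed positions overlap GRCm38 and 12.37% GRCm39. FPKM times gene length, divided by 1 step per library, gave whole fragments within 0.05 for 100% of values.

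The 11727 genes that reached an FPKM of 1 in 3 or more libraries were fitted on log2(FPKM + 1), which understates changes of low genes, with limma 3.58.1 (R 4.3.3; trend and robust) over all 9 libraries, and adjusted by Benjamini-Hochberg. The procedure was tested on simulated data. Alternatives were median centring, no filter, a minimum of 5, a pseudocount of 0.1, a replicate block, only the groups compared, voom on fragments, leaving out each library and, chosen after seeing the data, a gene length correction. The 10 genes and the lists were chosen with earlier results of these data known. Named from each list were up to 5 DEGs with the smallest adjusted p or, with no DEG, the 2 genes with the smallest. A gene that this rule names is not reported here. Other names are marked. Python 3.11.15, pandas 2.3.3 and matplotlib 3.10.9 were used.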

Additional observations from a re-analysis of the deposited data

Results flagged for a closer look

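The effects of 10 and 20 J/cm2 differed, by the limma test of Ep2 minus Ep1 with an adjusted p below 0.05, for 5 of the 9 tested genes: by 0.40 for Tgfbr2, 0.17 for Smad3, -0.17 for Smad6, -0.30 for Smad7 and 0.52 for Thbs1 on the log2 scale. The difference of Smad6 passed in only 5 of 14 other settings. That of Smad3 passed in 13, and those of Tgfbr2, Smad7 and Thbs1 passed in all 14. Among the other named genes of the pathway, the difference was positive for Acvr2a (0.34), Nedd4l (0.57), Itgav (0.19), Fstl1 (0.34), Htra1 (0.48), Bhlhe40 (0.51) and Klf10 (0.45). It was negative for Bmp1 (-0.23), Itgb5 (-0.19), Thbs3 (-0.84) and Pmepa1 (-0.70). Of the cell type markers it was 0.53 for Flt1 and 0.61 for Epcam. Between the doses 44.0% of all tested genes passed.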

How the results depend on the processing

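Of 378 alternative fits of the 9 tested genes, 340 kept direction and side of the threshold, 29 lost the call, 4 gained it and 5 changed sign. The sign changes were in changes that did not pass: Smad3 in Ep1 without Ctrl replicate 1 (0.0039) or Ep1 replicate 2 (0.011), over a range of -0.043 to 0.011, Tgfb1 in Ep1 without Ctrl replicate 3 (-0.028) or Ep1 replicate 3 (-0.00029), over -0.028 to 0.073, and Tgfbr1 in Ep2 against Ep1 without Ep2 replicate 3 (-0.012), over -0.012 to 0.22. In Ep1, 1 of the 9 genes passed with no filter and 0 were DEGs. Leaving out 1 library gave 0 to 4 genes that passed and 0 to 1 DEGs in Ep1, with 0 passing without Ctrl replicate 2 and 1 without Ctrl replicate 1 or Ep1 replicate 3. In Ep2, DEGs numbered 2 with median centring, 2 with a pseudocount of 0.1 and, Tgfb2 included, 3 with voom, and 1 to 2 without 1 library. Beside Thbs1, Tgfbr1 was a DEG in each setting with 2 or 3. In Ep2, 6 to 8 genes passed without 1 library. Between the doses, 3 to 5 genes passed (3 without Ep1 replicate 2) and 0 to 1 were DEGs without 1 library. The cause of these shifts was not tested.

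Over all genes, 1324 passed in Ep1, 396 with no filter, 2162 with only the groups compared and 191 to 1034 without 1 library. DEGs were 93, 1075 and 692 in the comparisons, against 243, 2211 and 1553 with voom and 147, 1616 and 1101 with a pseudocount of 0.1. In Ep1 there were 41 DEGs with no filter and 33 to 112 without 1 library. Median centring moved the share of DEGs that were higher from 36.0 to 47.3% in Ep2 and from 32.8 to 48.8% between the doses. For all passing genes this share moved from 44.9 to 52.7% in Ep2 and from 42.8 to 55.5% between the doses. With the replicate number as a block, 4, 8 and 5 of the 9 genes passed and 1051, 6110 and 4983 of all genes. Same-numbered libraries of different groups correlated at -0.0565 to 0.0744, and differently numbered ones at -0.108 to 0.153. With 3 libraries per group this cannot tell whether the numbers pair the libraries. The block changed no call of the 9 genes.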
